A study of Mus musculus with 2 samples.

Results

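The cells described are the high pigment B16 F10 melanoma cells that the authors' cell table places in cluster 0. They were chosen by 2 entries of that table, the cluster number, which rests on gene counts measured in these same cells, and the high pigment sort. This gave 1520 cells, 37.7% of the 4036 cells in the table and 71.2% of the 2136 high pigment cells. Another 36 cells of cluster 0 came from the low pigment sort and were not used. B16 F10, an established melanoma line of the mouse, produces melanin. Both groups came from cultures seeded at 100 cells per cm2 and kept for 7 days in DMEM rich in glucose, with serum. Side scatter in a flow cytometer then split the trypsinized cells into low and high pigment, and each of these 2 fractions gave 1 library made with a 3' v3.1 kit of 10x Genomics. The kit primes on polyadenylated RNA and counts molecules by unique molecular identifiers (UMIs).

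The cells were compared with the 616 other high pigment cells, of which 523 were in cluster 3, 48 in cluster 1 and 45 in cluster 2. They were also compared with the 822 low pigment cells of cluster 2, 43.3% of the 1900 low pigment cells. These are named the cycling low pigment cells below, although they do not hold all low pigment cells that cycle. Each fraction was 1 library, so there was no replicate check and no test was made. The clusters were drawn from the same gene counts that are compared here, so every difference from the other high pigment cells is a description of how the clusters were cut. Against the low pigment cells, the sort, the library and the cell cycle makeup cannot be told apart. UMIs were summed over the cells of a group and expressed as counts per 1000000 UMIs of that group (CPM). A ratio of CPM compares shares of a group's UMIs and not RNA per cell. The 95% intervals given are exact and cover counting error only.

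A dividing cell copies its DNA in S phase and separates the copies in mitosis. Replication genes are transcribed mainly at the border of G1 and S under E2F factors, and mitotic genes later, under the MuvB complex with B-MYB and FOXM1. In pigment cells MITF and SOX10 drive the genes of melanin synthesis, and MITF is also known for effects on proliferation. In melanoma, a pigmented, proliferating state is usually set against a dedifferentiated state with low MITF.

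The 1520 cells held 22421731 UMIs, the other high pigment cells 6426960 and the low pigment cells 16064006. Median UMIs per cell were 13853.5 in the cells described (range 7514 to 38940), 9786 in the other high pigment cells and 18959 in the cycling low pigment cells. After each cell was thinned to 7500 UMIs, the median number of genes detected was 2674, 2676.5 and 2767 in that order. Scrublet marked 13 of the 1520 cells as doublets (0.855%), 2 of the other high pigment cells and 11 of the low pigment cells, and none was removed. The median share of mitochondrial UMIs was 4.83%, 5.77% and 5.41%. The count matrix shares 2 barcode sequences between its libraries, and no barcode of the cell table occurs in both.

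The label came with 4 markers, the lineage factors Mitf and Sox10 and the G2 and M phase genes Ube2c and Gtse1. Ube2c (chr2:164769898-164778822, the ubiquitin-conjugating enzyme of the anaphase-promoting complex) stood at 342 CPM in the cells described, 99.0 in the other high pigment cells and 214 in the cycling low pigment cells. Gtse1 (chr15:85859745-85876573, a microtubule-associated protein that also restrains p53) stood at 53.1, 21.6 and 32.3 CPM. Both genes were highest in the cells described. Sox10 (chr15:79154908-79165240) was also highest in the cells described, with 234 CPM against 185 in the other high pigment cells and 111 in the cycling low pigment cells. Mitf (chr6:97807052-98021349) was different, with 473 CPM in the cells described, 621 in the other high pigment cells and 190.0 in the cycling low pigment cells. The levels of both cell cycle genes match the label of cycling cells. They are no independent check of it, because the markers came with the label and the cluster was drawn from these same counts. Mitf lay between the other high pigment cells and the cycling low pigment cells. The positions are those of GENCODE on build mm10.

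Cell cycle phases were called from 2 standard lists of S and of G2 and M genes after thinning. Of the 1520 cells, 876 (57.6%, 95% interval 55.1 to 60.1) were called G2M, 515 (33.9%, 31.5 to 36.3) S and 129 (8.49%) G1. The other high pigment cells were called G1 in 448 cells (72.7%), S in 41 (6.66%) and G2M in 127 (20.6%). The low pigment cells of cluster 2 were called S in 496 cells (60.3%), G2M in 323 (39.3%) and G1 in 3. Among the 1023 low pigment cells of cluster 1, which were not used, 248 were called S and 135 G2M. Cells called G2M were thus the largest group in the cells described, and cells called S in the cycling low pigment cells. The authors' deposited phases put 55.5% of the 1520 cells in G2M, 30.3% in S and 14.3% in G1. With control genes drawn from all genes instead of the measured ones, a setting chosen after seeing the data, 76.6% were called G2M, 21.8% S and 1.51% G1. The calls use the same genes that define the clusters, and the part of free RNA in them was not tested.

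**Figure D1:**
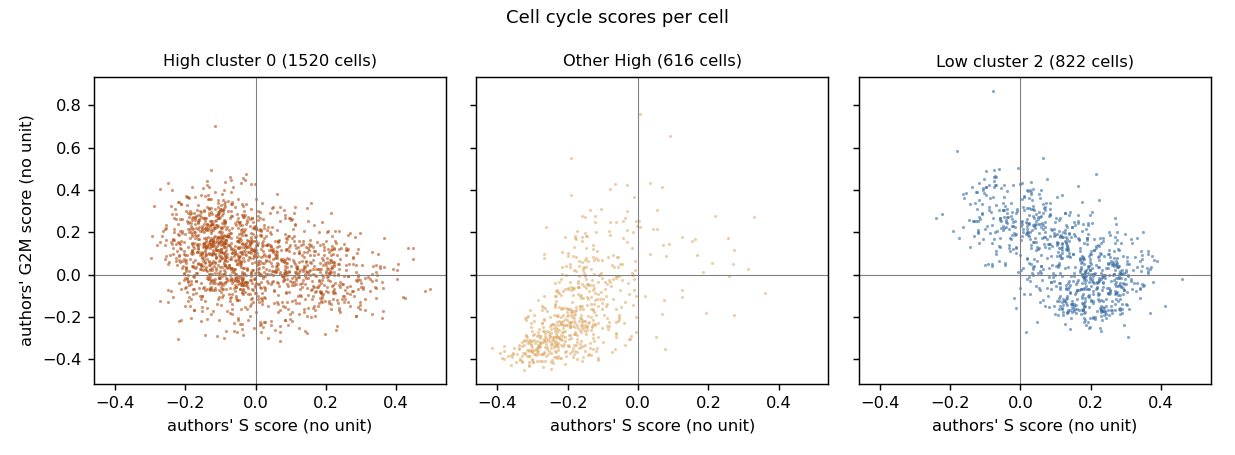
Authors' deposited G2M score against their S score, no unit, 1 point per cell, for the 1520 high pigment cells of cluster 0, the 616 other high pigment cells and the 822 low pigment cells of cluster 2. Most of the other high pigment cells lie below 0 on both axes (medians -0.188 for S and -0.225 for G2M), the cells described spread over the upper left and the right (medians -0.039 and 0.073), and the low pigment cells lie furthest right (median S score 0.141).

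The promoters of mitotic genes that stood out in these cells are shown because many carry a short element, the cell cycle genes homology region (CHR), that binds the MuvB complex. The letters TTTGAA or TTCGAA, searched on both strands in RefSeq windows on GRCm38.p6 of 250 bases before to 50 bases after each start, were in 54.1% of 109 windows of mitotic genes. They were in 15.9% of 69 windows of replication genes and in 19.2% of all 32851 windows. A window was found for 94 of 108 mitotic genes and 60 of 76 replication genes. The next lines give the 120 bases before the start of 5 genes with the letters there, taken downwards from the largest ratio over the other high pigment cells, with the letters in capitals (TTCAAA is TTTGAA read on the other strand).
Top2a, chr11:99024190-99024309, minus strand: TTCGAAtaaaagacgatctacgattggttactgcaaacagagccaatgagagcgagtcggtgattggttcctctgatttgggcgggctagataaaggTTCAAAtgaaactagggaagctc
Prc1, chr7:80294356-80294475, plus strand: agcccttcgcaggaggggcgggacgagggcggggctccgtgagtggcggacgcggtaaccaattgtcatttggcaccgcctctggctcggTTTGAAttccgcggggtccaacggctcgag
Ube2c, chr2:164769809-164769928, plus strand: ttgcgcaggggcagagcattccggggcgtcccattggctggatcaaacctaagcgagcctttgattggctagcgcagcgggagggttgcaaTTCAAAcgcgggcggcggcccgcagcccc
Kif11, chr19:37376262-37376381, plus strand: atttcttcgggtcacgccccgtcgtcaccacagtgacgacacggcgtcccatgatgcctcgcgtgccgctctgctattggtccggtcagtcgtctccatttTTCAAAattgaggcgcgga
Ncapg2, chr12:116405316-116405435, plus strand: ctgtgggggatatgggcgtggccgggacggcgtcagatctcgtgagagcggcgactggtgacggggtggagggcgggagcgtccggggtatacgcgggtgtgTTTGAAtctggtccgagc
In each of these 5 the letters begin between 18 and 30 bases before the start, and Top2a has a further match at 120 bases. A match describes letters only and is not a measured site. The letters CCAAT were in 67.0% of mitotic, 62.3% of replication and 37.4% of all windows.

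Against the other high pigment cells, 7642 genes were measured, that is, had a mean of at least 10 CPM over both groups. Of these, 281 (3.68%) were at least 1.5-fold higher in the cells described and 187 (2.45%) at least 1.5-fold lower, by size alone, and the log2 ratio of the median gene was -0.07. Divided by the ratio of the median gene, 329 genes were higher and 130 lower by that size. Among genes with a mean of at least 50 CPM, the 12 largest ratios belonged mostly to genes of DNA replication and mitosis. Sgo1, the shugoshin that protects cohesion at the centromere, stood at 95.4 against 22.7 CPM and was 4.20-fold (95% interval 3.55 to 5.00) higher. Top2a, topoisomerase II alpha, which untangles sister DNA, stood at 319 against 77.2 CPM and was 4.13-fold (95% interval 3.77 to 4.53) higher. Prc1, which bundles the midzone microtubules of the anaphase spindle, had 207 against 50.3 CPM (4.13-fold). Next came Rad51ap1 (4.01-fold), a protein of homologous recombination, and Nusap1 (3.66-fold), a spindle protein. Then followed Ube2c (3.46-fold), Incenp (3.44-fold), Cdk1 (3.30-fold), Spc25 (2.94-fold), Kif11 (2.88-fold), Tubb5 (2.77-fold) and Pclaf (2.72-fold).

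Among genes with a mean of at least 50 CPM, many of the 12 lowest ratios belonged to immediate early and related transcription factor genes. Nr4a2, an orphan nuclear receptor, stood at 40.0 against 136 CPM and was 3.41-fold lower. Jun, an AP-1 subunit, stood at 92.0 against 256 CPM (2.79-fold lower). Tob2 (2.44-fold), an antiproliferative protein of the BTG and TOB family, Nr4a1 (2.39-fold), Fosl2 (2.02-fold), Klf4 (1.85-fold), Klf6 (1.80-fold) and Klf3 (1.73-fold) were also lower. The histone gene Hist1h2bc was 2.17-fold lower, at 93.3 against 203 CPM. The rest of these 12 were Gm42418 (1.82-fold), Spsb2 (1.74-fold) and Ccnl1 (1.72-fold). Gm42418 overlaps a ribosomal RNA gene and its counts are uncertain.

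Replication genes were higher than in the other high pigment cells throughout their roles. A list member was called higher where its CPM was at least 25% above that of the other group and lower where it was at least 20% below. By that size 620 of all measured genes (8.11%) were higher and 1094 (14.3%) lower. Since the clusters were drawn from these genes, nothing is read from the counts against those shares. List members under 10 CPM are left out, and a gene near that limit can be measured through the higher group alone. Of 15 measured genes of licensing and firing, 14 were higher and 0 lower (median log2 ratio 0.79). Mcm3, a subunit of the replicative helicase, stood at 141 against 65.2 CPM (2.17-fold) and Cdc45, which activates the helicase, at 23.9 against 8.71 (2.75-fold). Of 24 fork genes 22 were higher and 0 lower (median 0.75). Clspn, the claspin that links stalled forks to the checkpoint kinase CHK1, stood at 47.0 against 13.1 CPM (3.60-fold), while the sliding clamp Pcna stood at 189 against 121 (1.56-fold). The single-strand binding subunit Rpa1 was within the limit, at 45.2 against 41.5 CPM.

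Of 12 measured genes of nucleotide synthesis 8 were higher and 0 lower. The higher ones included thymidine kinase Tk1 (2.27-fold), ribonucleotide reductase Rrm2 (1.91-fold) and thymidylate synthase Tyms (1.84-fold). The de novo purine genes Paics, Gart and Impdh2 were among the 4 within the limit, at ratios of 1.08, 0.872 and 1.01. Of 11 genes of chromatin replication 10 were higher (median 0.77), among them the helicase Hells (2.15-fold) and the CAF-1 subunit Chaf1a (2.0-fold). Of 14 genes of replication-linked repair 12 were higher (median 0.98), with Exo1, an exonuclease, at 22.8 against 3.73 CPM (6.12-fold (95% interval 4.06 to 9.63)).

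Cyclins differed by the phase they serve. Of 19 measured cyclins, CDKs and their phosphatases and kinases, 12 were higher and 3 lower than in the other high pigment cells. The 3 lower ones were the D cyclins, which pass mitogen signals to CDK4 and CDK6 in G1. Ccnd1 stood at 143 against 201 CPM (1.40-fold lower), Ccnd2 at 258 against 349 (1.35-fold lower) and Ccnd3 at 72.7 against 91.0 (1.3-fold lower). The S phase cyclins Ccne2 (2.38-fold) and Ccna2 (2.72-fold), the mitotic cyclin Ccnb1 (2.36-fold) and Ccnf (3.62-fold), an F-box protein that degrades cell cycle regulators, were higher. Ccnb2, the other mitotic B cyclin, did not follow Ccnb1 and stood at 53.7 against 58.2 CPM. The kinases Cdk2, Cdk4 and Cdk6 were within the limit at a ratio of 1.03 each, while Cdk1 rested at 129 against 39.0 CPM.

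CDK inhibitors and pocket proteins, which restrain the cycle, differed by comparison. Of 6 measured 4 were higher and 0 lower than in the other high pigment cells (median log2 ratio 0.52). Among cells called S 1 was higher and 3 lower (median -0.25), where 18% of all measured genes were higher by that size and 30.3% lower. Against the cycling low pigment cells 1 of 7 was higher and 5 were lower (median -0.43), where 12.3% of all measured genes were higher and 29.4% lower. Cdkn1a, the p53 target p21, was the most abundant of them at 483 against 374 CPM (1.29-fold (95% interval 1.24 to 1.35) higher), and the cycling low pigment cells had 309. Within the cells described it was highest in cells called S (628 CPM, against 331 in the other high pigment cells). In cells called G2M both groups were close, at 403 and 417 CPM. Wee1, the kinase that holds CDK1 inactive, stood at 38.8, 13.8 and 23.0 CPM in the 3 groups. Cdkn1b, p27, was within the limit (52.4 against 53.7 CPM), and Rbl1, the pocket protein p107, was 2.68-fold higher. Cdkn2a and Cdkn2b, which encode p16 and p15, had 0 UMIs in all 3 groups. For the cells described, 3 UMIs would be 0.134 CPM.

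Of 12 measured regulators of the E2F, MYB and FOXM1 programs, 8 were higher and 1 lower. B-MYB (Mybl2) stood at 23.6 against 7.78 CPM (3.04-fold), Foxm1 at 47.6 against 29.7 (1.60-fold) and E2f1 at 34.6 against 22.2 (1.55-fold). The repressor E2f8 stood at 12.3 CPM in the cells described. Its mean over both groups was under 10 CPM, so it is not among the 12 measured and its ratio is not read. Myc was the lower one, at 14 against 23.6 CPM.

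Of 12 mitotic kinases 10 were measured and 10 were higher (median log2 ratio 1.06), which was the highest median of all lists in this comparison. Of 26 kinetochore and checkpoint genes 23 were measured and 23 were higher (0.92), and so were 11 of 11 genes of the chromosome passengers and cytokinesis (0.95). Of 27 spindle genes and motors 26 were higher (0.88), and of 18 genes of condensin and chromosome structure 15 (0.93). Aurkb, the kinase of the passenger complex, stood at 58.3 against 13.1 CPM (4.46-fold), and its partners Incenp at 78.7 against 22.9 and Birc5 at 339 against 172. Plk1, the kinase of mitotic entry, stood at 34.7 against 16.5 CPM (2.10-fold), and Cenpf, a large kinetochore protein, at 218 against 101 (2.16-fold). Mki67, the proliferation marker, stood at 216 against 98.2 CPM. Near-identical copies make the counts of single tubulin genes, Tubb5 and Tuba1b among them, uncertain.

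The anaphase-promoting complex was uneven. Of 19 measured genes 6 were higher and 0 lower than in the other high pigment cells. Its inhibitor Fbxo5, EMI1, stood at 32.2 against 6.69 CPM (4.81-fold (95% interval 3.53 to 6.70)), and the activator Fzr1, CDH1, at 30.8 against 15.4 (2.0-fold). Cdc20, the mitotic activator, was within the limit at 32.4 against 28.6 CPM, and so was its substrate securin, Pttg1, at 36.0 against 40.5. Most core subunits were within the limit, among them Anapc2 (ratio 1.01) and Cdc27 (0.946).

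**Figure D2:**
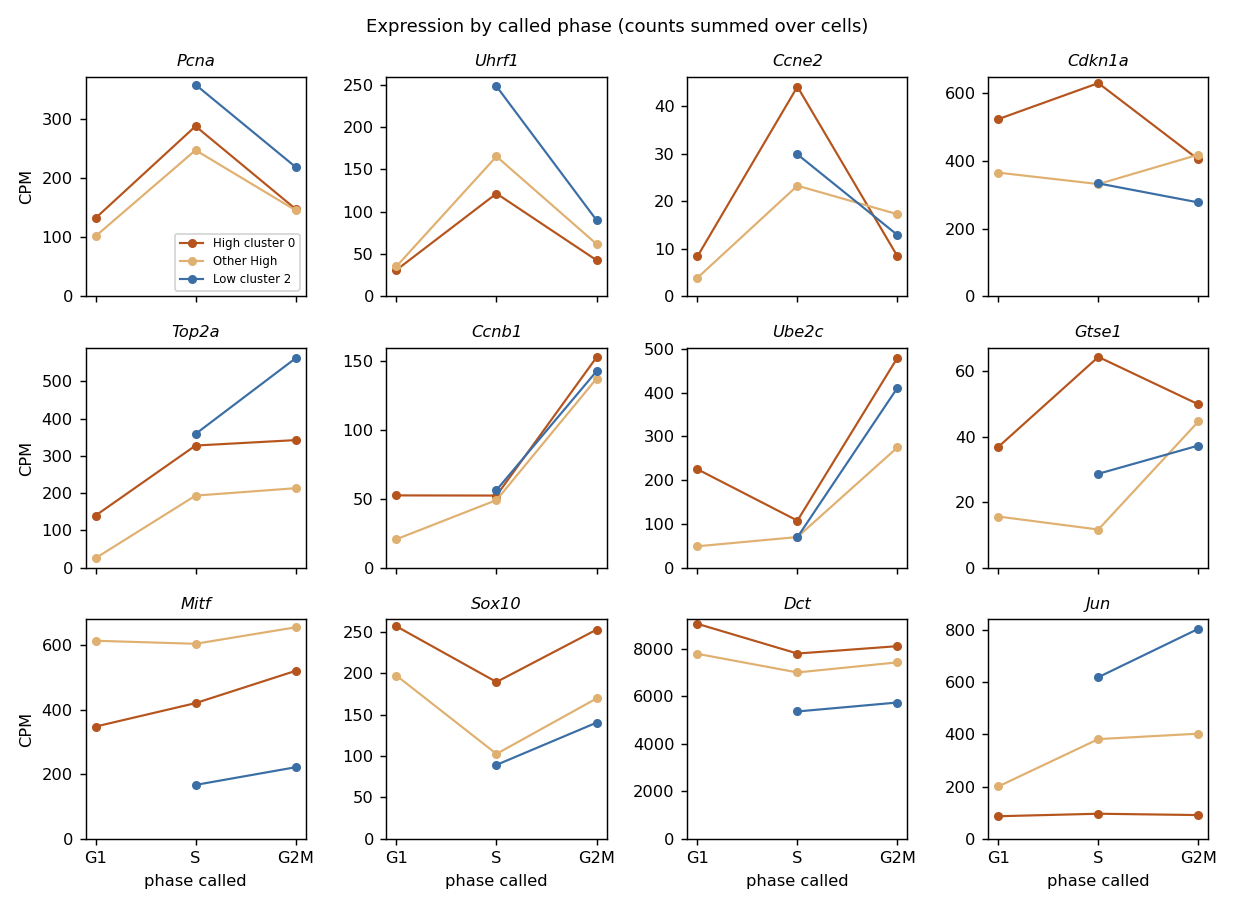
CPM by called phase for 12 genes, 1 panel each, with linear axes from 0; lines join the 1520 high pigment cells of cluster 0, the 616 other high pigment cells and the 822 low pigment cells of cluster 2 (its 3 G1 cells not drawn). Ube2c reaches 479.5 CPM in the cells described called G2M, Jun lies under 100 CPM in all their phases, and Mitf is lowest in the low pigment cells.

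The difference in cell cycle genes from the other high pigment cells depended on the called phase. Among cells called G2M, 876 of those described and 127 of the others, the median log2 ratio of all measured genes was -0.11. The medians of spindle genes (-0.18) and passengers (-0.16) lay below it, and those of mitotic kinases (-0.01) and kinetochore genes (0.04) above it. In this comparison 9.99% of measured genes passed the size for list members upwards and 25.4% downwards. The 127 others were 76 cells of cluster 3, 19 of cluster 1 and 32 of cluster 2. Clusters 1 and 2 held mostly low pigment cells, and the part of this make-up in the ratios was not tested. Some mitotic genes were lower in the cells described called G2M. Cdc20 stood at 44.1 against 96.6 CPM, Cenpe, a kinetochore motor, at 96.9 against 166, Hmmr, a spindle assembly factor, at 114 against 185, and Ccnb2 at 68.8 against 111. Other mitotic genes kept their direction. Ube2c stood at 479.5 against 275 CPM, Prc1 at 258 against 160.0, Top2a at 342 against 213 and Sgo1 at 109.6 against 58.4. Sox9 and Ccnd2 also turned in this phase, with 45.2 against 38.9 and 230.4 against 211 CPM.

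Among cells called G1, 129 of those described and 448 others, the cell cycle genes kept the direction of the whole comparison. Of 21 measured kinetochore genes 20 were higher (median 1.04), where 10.1% of all measured genes passed that size upwards and 34.3% downwards. Top2a stood at 139.7 against 25.4 CPM, Ube2c at 225 against 48.8, and Mki67 at 92.0 against 38.6. In the cells described that were called G1, these genes thus took a larger share of UMIs than in other high pigment cells with that call. The clusters were drawn from such genes, so this describes how they were cut.

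Against the other high pigment cells the pigment genes differed little. Of 16 measured genes of melanin synthesis and melanosome structure 0 were higher and 3 lower. Dct, dopachrome tautomerase, stood at 8111 against 7662 CPM, Tyrp1 at 2279 against 2309, Mlana at 2324 against 2209 and the fibril protein Pmel at 1243 against 1437. The 3 lower genes were Tyr, the rate-limiting tyrosinase (112 against 159 CPM, 1.42-fold (95% interval 1.32 to 1.53) lower), the melanosomal receptor Gpr143 (1.33-fold lower) and the melanocortin receptor Mc1r (1.33-fold lower). Of 18 measured melanosome transport genes 0 were higher and 2 lower, the motor Myo5a (1.30-fold) and the AP-3 subunit Ap3m1 (1.44-fold).

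Lineage transcription factors were split. Of 11 measured, 1 was higher and 4 lower than in the other high pigment cells. Sox10 was the higher one (1.26-fold (95% interval 1.19 to 1.35)). Mitf was 1.31-fold (95% interval 1.27 to 1.36) lower, Sox9, a related SOX factor, 1.65-fold lower at 42.5 against 70.2 CPM, Tfe3, a relative of MITF, 1.41-fold lower and Usf1 1.27-fold lower. Pax3, an activator of Mitf, stood at 271 against 267 CPM. Within the cells described Mitf was 347 CPM in those called G1, 419.8 in S and 519.6 in G2M, while Sox10 was 256, 189 and 252. Mitf in the other high pigment cells was above these values in each phase, between 603 and 654 CPM.

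Immediate early genes were lower in the cells described, 19 of 20 measured (median log2 ratio -0.89). Fos stood at 14.1 against 48.4 CPM (3.42-fold lower), Dusp1, a phosphatase of MAP kinases, at 15.7 against 40.6 (2.58-fold) and Sik1 at 14.3 against 42.5 (2.97-fold). Dusp2 was within the limit. The direction of the list was the same within cells called G1 (median -0.83), S (-1.24) and G2M (-1.74). The other high pigment cells differed in make-up by phase. Cluster 3 gave 426 of their 448 cells in G1, 21 of 41 in S and 76 of 127 in G2M. The part of this make-up in the phase medians was not tested. Of 21 measured genes of the unfolded protein response 11 were lower, among them the chaperone Hspa5 at 653 against 978 CPM (1.5-fold) and Hsp90b1 at 602 against 895 (1.49-fold). Of 9 measured interferon and class I genes 6 were lower, of 16 hypoxia genes 6 and of 19 glycolysis genes 5, with 0 higher in each. Among cells called S hypoxia had 6 of 14 higher and 4 lower, glycolysis 3 of 19 each way and interferon 6 of 9 lower. There 18% of all measured genes were higher and 30.3% lower. In the whole comparison 14.3% of all measured genes were lower by the size for list members and 8.11% higher. Of 13 mitochondrially encoded genes 6 were lower and 0 higher, and of 41 nuclear genes of oxidative phosphorylation 1 was lower. Ribosome biogenesis had 0 of 24 genes beyond the limit in either direction.

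**Figure D3:**
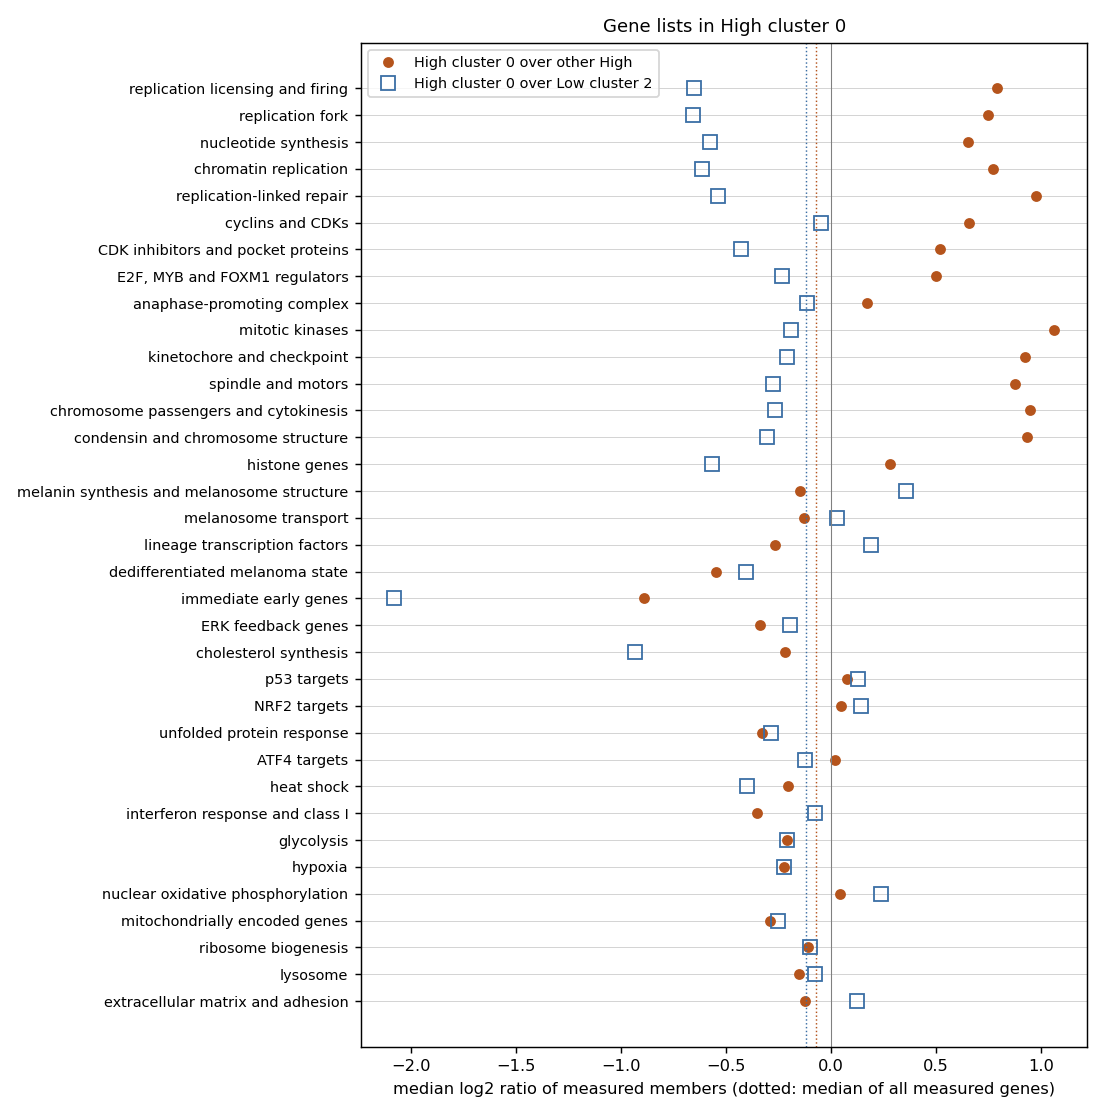
Median log2 ratio of the measured members of 35 gene lists, in the high pigment cells of cluster 0 over the other high pigment cells (circles) and over the low pigment cells of cluster 2 (squares); dotted lines are the medians of all measured genes, -0.07 and -0.12. Replication and mitotic lists lie right of 0 against the other high pigment cells and left of 0 against the cycling low pigment cells, and immediate early genes lie left in both (-0.89 and -2.08).

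Against the cycling low pigment cells, 7871 genes were measured. Of these 318 (4.04%) were higher by 1.5-fold or more in the cells described and 943 (12%) lower by as much, and the median log2 ratio was -0.12. Scaling the ratios so that the median gene has 1 gave counts of 516 and 606. Both comparisons use the same 1520 cells and are not independent. Pmepa1, an inhibitor of TGF-beta signalling, had the largest ratio among genes with a mean of at least 50 CPM, with 177 against 55.4 CPM (3.19-fold (95% interval 2.96 to 3.43)). Tnrc6a (2.75-fold), the coactivator of mitochondrial genes Ppargc1a (2.68-fold), the caspase-8 inhibitor Cflar (2.52-fold), Map7d2 (2.52-fold) and the fatty acid binding protein Fabp7 (2.50-fold) were also among the 12 largest. So was Mitf (2.49-fold (95% interval 2.39 to 2.59)), and Hmox1, heme oxygenase, Lgals3, galectin-3, Eps8 and Pdgfa stood at 2.49, 2.43, 2.32 and 2.23-fold.

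By the same limit of 50 CPM, many of the 12 lowest ratios against the cycling low pigment cells belonged to immediate early genes. Dusp1 stood at 15.7 against 162 CPM (10.3-fold (95% interval 9.20 to 11.5) lower), Fos at 14.1 against 129 (9.14-fold), Fosb at 12.6 against 112 (8.94-fold) and Egr1 at 14.4 against 111 (7.70-fold). Jun stood at 92.0 against 701 CPM (7.62-fold (95% interval 7.27 to 7.99) lower). Sik1 (7.21-fold), Nr4a1 (6.93-fold), the antiproliferative Btg2 (6.64-fold), Tob2 (5.22-fold), the Notch target Hes1 (4.83-fold) and the kinase Pim3 (4.71-fold) were lower too. Hmgcs1, an enzyme of cholesterol synthesis, stood at 25.6 against 179.7 CPM (7.01-fold lower).

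Many genes of the melanin list, not all of them enzymes or structural proteins of the melanosome, were higher than in the cycling low pigment cells. Of 16 measured genes of melanin synthesis and melanosome structure 8 were higher and 1 lower (median log2 ratio 0.35), where 12.3% of all measured genes passed the size for list members upwards and 29.4% downwards. Dct was the most abundant, at 8111 against 5513 CPM (1.47-fold (95% interval 1.46 to 1.48)). Tspan10, a tetraspanin, stood at 128 against 68.3 CPM (1.87-fold), the cystine transporter Slc7a11 at 151 against 88.1 (1.71-fold), and Ptgds, prostaglandin D synthase, at 2337 against 1370 (1.71-fold). The channel Trpm1 (1.63-fold), Mlana (1.52-fold), Cited1 (1.5-fold) and the copper pump Atp7a (1.32-fold) made up the rest. Tyr did not differ in share of UMIs (ratio 0.997-fold (95% interval 0.938 to 1.06)), and Pmel stood at 1243 against 1324 CPM. Mc1r was the lower gene (1.28-fold).

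Promoters of genes in the melanin list are shown because MITF is known to bind E-box and M-box elements in promoters of melanin genes. The letters CATGTG or CACGTG, on both strands and in the same windows, were in 61.1% of 18 windows of Mitf and the melanin list (13 of 17 genes had a window). They were in 20.4% of all windows and in 12.8% of those of mitotic genes. The next lines give the 160 bases before the start of the 5 genes with the letters there and the largest ratios over the cycling low pigment cells, with the letters in capitals (CACATG is CATGTG on the other strand).
Tspan10, chr11:120442471-120442630, plus strand: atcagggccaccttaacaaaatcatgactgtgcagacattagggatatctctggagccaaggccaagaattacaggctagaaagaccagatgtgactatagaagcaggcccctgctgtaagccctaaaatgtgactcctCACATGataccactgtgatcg
Slc7a11, chr3:50443614-50443773, minus strand: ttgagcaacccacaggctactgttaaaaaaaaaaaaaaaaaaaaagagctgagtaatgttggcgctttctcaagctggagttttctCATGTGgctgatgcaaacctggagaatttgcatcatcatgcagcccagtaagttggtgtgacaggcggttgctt
Trpm1, chr7:64153675-64153834, plus strand: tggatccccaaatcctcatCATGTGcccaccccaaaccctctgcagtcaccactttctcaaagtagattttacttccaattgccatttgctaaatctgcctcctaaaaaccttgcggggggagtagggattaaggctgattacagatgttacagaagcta
Cited1, chrX:102251844-102252003, minus strand: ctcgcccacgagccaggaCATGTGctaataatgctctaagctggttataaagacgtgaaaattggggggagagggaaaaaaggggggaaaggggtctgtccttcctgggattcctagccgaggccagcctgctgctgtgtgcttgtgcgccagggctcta
Dct, chr14:118052247-118052406, minus strand: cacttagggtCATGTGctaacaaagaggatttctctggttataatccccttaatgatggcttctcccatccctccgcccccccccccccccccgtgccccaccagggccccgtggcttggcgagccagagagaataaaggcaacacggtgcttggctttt
In Trpm1, Cited1 and Dct the letters begin between 141 and 150 bases before the start, in Slc7a11 at 74 and in Tspan10 at 21. No binding was measured here.

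Of 11 measured lineage factors 5 were higher than in the cycling low pigment cells and 4 lower. Of all measured genes 12.3% were higher by that size and 29.4% lower. The count of lower factors is near that share, and nothing is read from it. Mitf (2.49-fold), Ppargc1a (2.68-fold, listed as a partner of MITF), Sox9 (2.42-fold), Sox10 (2.11-fold (95% interval 2.0 to 2.22)) and Tfap2a (1.76-fold), which acts with MITF, were higher. Zeb2 (1.46-fold), Tfe3 (1.74-fold), Usf1 (1.60-fold) and Sox5 (1.38-fold) were lower, and Pax3 stood at 271 against 318 CPM. Mitf was also higher within the called phases that could be compared, with 419.8 against 167 CPM in S and 519.6 against 221 in G2M. Among transport genes Mlph, melanophilin, stood at 162 against 89.0 CPM (1.81-fold) and its partner Rab27a at 49.5 against 30.6 (1.62-fold), while Bloc1s5 was 2.19-fold lower.

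Replication genes were lower than in the cycling low pigment cells. In licensing 13 of 19 measured genes were lower and 0 higher (median -0.65), in the fork list 21 of 26 (-0.66), in nucleotide synthesis 9 of 12 (-0.58), in chromatin replication 10 of 11 (-0.62) and in replication-linked repair 14 of 16 (-0.54), with 0 higher in each. Uhrf1, which brings DNA methyltransferase to new DNA, stood at 65.7 against 180.3 CPM (2.75-fold (95% interval 2.58 to 2.93) lower). Dscc1, of the clamp loader for cohesion, was 2.74-fold lower, Pold1, the polymerase delta subunit, 2.68-fold, and Ccne1, a cyclin of S phase entry, 2.39-fold. Fen1, the flap endonuclease, was level with the low pigment cells at 37.1 against 37.0 CPM.

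The low pigment cells held a larger share of cells called S, and within that call the differences were smaller. Among cells called S, 515 and 496, licensing genes had a median of -0.20 with 8 of 19 lower and 1 higher, and fork genes -0.31 with 12 of 26 lower and 2 higher. In that comparison 12.9% of measured genes were higher by the size for list members and 26.5% lower. Uhrf1 stood at 122 against 248 CPM in cells called S, and Slbp, the histone mRNA binding protein, at 196 against 316. Ccne2 went the other way with 44.1 against 29.9 CPM. Among cells called G2M, 876 and 323, fork genes were lower in 20 of 26 (median -0.57), where 12.2% of measured genes were higher and 30% lower.

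Histone genes showed some of the lowest ratios of the cell cycle lists. Of 16 measured 9 were lower than in the cycling low pigment cells and 0 higher (median -0.57). The shares over all measured genes were 29.4% lower and 12.3% higher by the size for list members. Hist1h2ae stood at 41.8 against 162 CPM (3.88-fold (95% interval 3.60 to 4.18) lower), Hist1h1e, a linker histone, at 55.8 against 140.1 (2.51-fold) and Hist1h4d at 21.1 against 62.2 (2.95-fold). In cells called S, Hist1h2ae was 55.7 against 168 CPM. The variants H2afz (ratio 1.12) and H3f3a (1.01), made outside S phase too, were within the limit. Most replication histone transcripts lack a poly(A) tail, which the kit primes on, and the genes are near-identical copies, so their counts are uncertain.

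**Figure D4:**
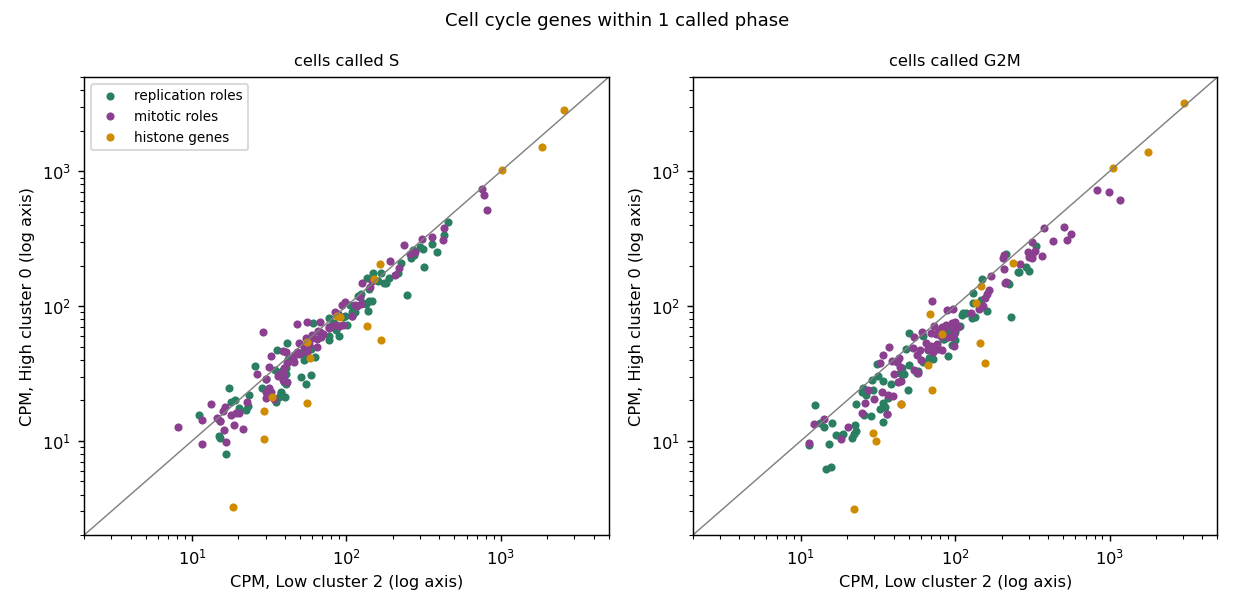
CPM in the high pigment cells of cluster 0 against CPM in the low pigment cells of cluster 2, log axes, 1 point per measured gene, for cells called S (515 and 496) and called G2M (876 and 323); the line marks equal CPM. Most histone, replication and mitotic genes lie on or below the line, in the right panel further below it for mitotic genes.

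Mitotic lists had members in both directions against the cycling low pigment cells, where 12.3% of all measured genes were higher by the size for list members and 29.4% lower. Of 25 measured kinetochore genes 2 were higher and 7 lower, of 27 spindle genes 2 and 11, of 11 mitotic kinases 0 and 4 and of 18 condensin and chromosome structure genes 1 and 8. The kinetochore and kinase counts of lower genes are near the share over all genes, and nothing is read from them. The higher ones were Cenpa, the centromeric histone (176 against 115 CPM, 1.53-fold), Sgo1 (1.54-fold), Gtse1 (1.64-fold (95% interval 1.48 to 1.82)), Aspm, a spindle pole protein (1.27-fold), and G2e3 (1.5-fold). Outside these lists Ube2c was 1.60-fold (95% interval 1.53 to 1.66) higher, Ccnf 1.88-fold, Wee1 1.68-fold and Cdc25c, the phosphatase that activates CDK1, 1.32-fold. The lower ones included Melk (2.15-fold), Kif14 (1.94-fold), Ncapg (1.68-fold), Ndc80 (1.66-fold) and Top2a (319 against 444 CPM, 1.39-fold).

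Among cells called G2M the mitotic lists were lower than in the low pigment cells, spindle genes in 21 of 29 (median -0.46), passengers in 8 of 11 (-0.42) and mitotic kinases in 7 of 11 (-0.48). Of all genes measured in this phase 30% were lower by that size and 12.2% higher (median -0.11). Top2a stood at 342 against 562 CPM, Mki67 at 237 against 368 and Tpx2, a spindle assembly factor, at 205 against 265. Ube2c at 479.5 against 411 CPM and Gtse1 at 49.9 against 37.3 were again higher. Gtse1 also differed within cells called S, with 64.4 against 28.7 CPM. In the other high pigment cells called S and G2M it had 11.7 and 44.7 CPM. The value in S rests on few UMIs, as 12.2% of those 41 cells had any of Gtse1.

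Against the cycling low pigment cells 29.4% of all measured genes were lower by the size for list members and 12.3% higher. The immediate early list was lower in 18 of 21 measured genes and higher in 1 (median log2 ratio -2.08). The higher gene was Dusp2, at 18.4 against 13.4 CPM. The median was -2.02 in cells called S and -2.33 in cells called G2M. Jun stayed between 86.4 and 96.0 CPM in the phases of the cells described, while the low pigment cells had 619 in S and 805 in G2M. Per cell, after thinning, the list took a median of 0.08% of UMIs in the cells described, 0.133% in the other high pigment cells and 0.293% in the cycling low pigment cells. Only 29 of the 1520 cells (1.91%) were above the median of the low pigment cells.

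Cholesterol synthesis was lower than in the cycling low pigment cells in 22 of 23 measured genes and higher in 0 (median -0.93). Over all measured genes these shares were 29.4% and 12.3%. Hmgcs1 was the lowest, and Idi1, an isomerase of the pathway, was 3.03-fold lower, at 53.5 against 162 CPM. Ebp was the gene within the limit (1.09-fold lower). The medians were -0.85 in cells called S and -1.09 in cells called G2M. Against the other high pigment cells 9 of 23 were lower and 0 higher, with Hmgcs1 at 25.6 against 49.8 CPM. In that comparison 14.3% of all measured genes were lower by the size for list members and 8.11% higher.

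**Figure D5:**
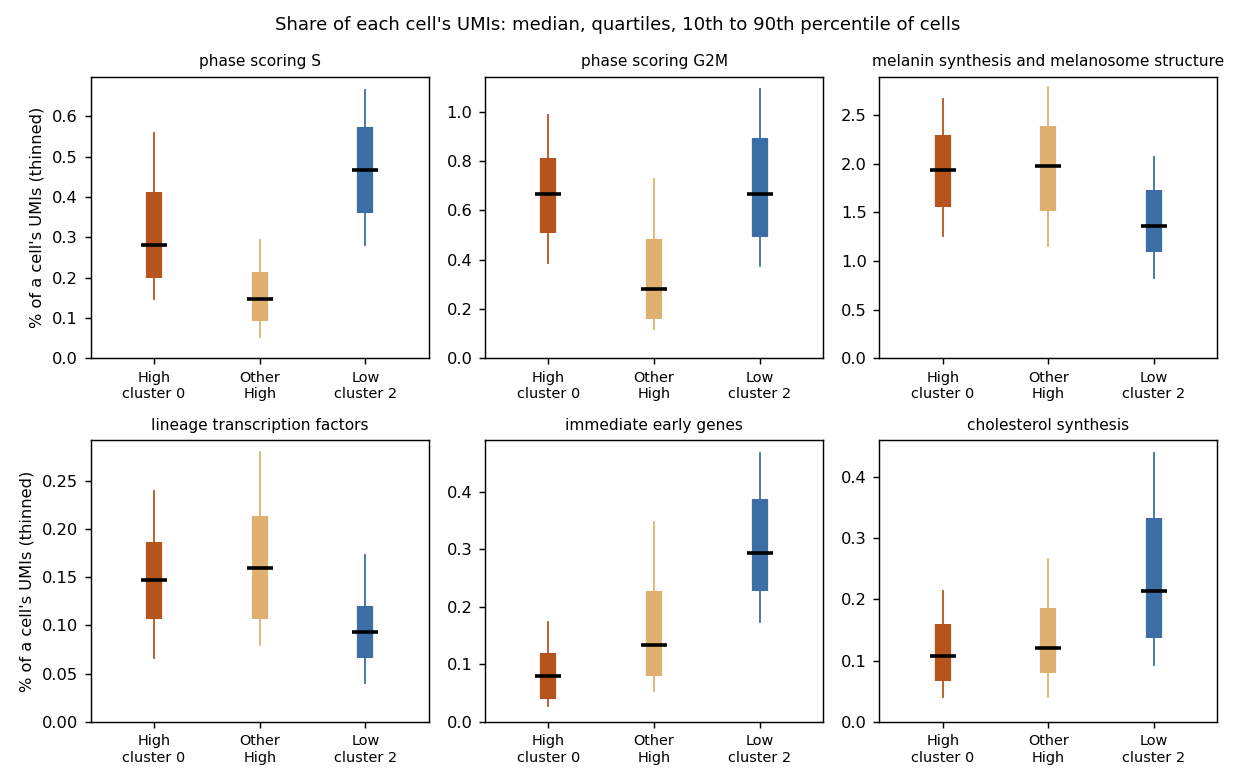
Share of each cell's UMIs in 6 gene lists after thinning to 7500 UMIs, in percent, from 0; black line the median cell, box the quartiles, thin line the 10th to 90th percentile of cells, for the 3 groups. The immediate early share is lowest in the cells described (median 0.08%) and highest in the low pigment cells (0.293%), and the melanin share is close in both high pigment groups (1.93% and 1.97%) and lower in the low pigment cells (1.36%).

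Other lists are given by single members, and the counts are to be read against the 12.3% of all measured genes that were higher and the 29.4% that were lower than in the cycling low pigment cells. Of 22 NRF2 targets, antioxidant genes, 7 were higher and 2 lower, led by Hmox1 (284 against 114 CPM) and Gclm, of glutathione synthesis (502 against 252, 2.0-fold). Of 15 p53 targets 4 were higher and 4 lower, with Cdkn1a (1.56-fold (95% interval 1.51 to 1.61)), Phlda3 (1.46-fold) and Ccng1 (1.45-fold) higher and Btg2 and Gadd45a (3.06-fold) lower. Nuclear genes of oxidative phosphorylation were higher in 14 of 41 and lower in 3 (median 0.24), Cox7a2 at 1361 against 904 CPM (1.5-fold) being the highest. Atp5b (1.42-fold) and Ndufv1 (1.33-fold) were among the lower ones. Of 13 mitochondrially encoded genes 5 were lower and 0 higher. The shares of lower p53 targets and mitochondrial genes are near that over all genes.

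Extracellular matrix and adhesion genes were higher in 5 of 14 and lower in 3, with Lgals3 at 675 against 278 CPM, Spp1, osteopontin, at 216 against 124 and Sparc at 1043 against 681. Of 7 genes of the dedifferentiated melanoma state 6 were lower and 1 higher than in the low pigment cells. The higher gene was Sox9, and the lower ones included Jun and Ccn1 (5.17 against 33.7 CPM), which are also mitogen-induced. Chaperones were lower in 6 of 9 heat shock genes, with Hspa8 at 1003 against 2133 CPM (2.13-fold).

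The cells described were not uniform. Cells called G1 had a median of 16383 UMIs, above the 12110 of cells called S and the 14538.5 of cells called G2M. Their median ribosomal protein share was 24.2%, against 21.3% in S and 21.4% in G2M, and their median mitochondrial share 4.50%, against 5.07% and 4.73%. Dct rested at 9057 CPM in G1, 7804 in S and 8115 in G2M, whereas Pmel was 899, 1362 and 1237. Hmox1 was also highest in cells called G1, with 444, 308 and 246 CPM. Over the 1520 cells the shares of the S list and of the G2 and M list had a Spearman rho of -0.088, against 0.640 over the other high pigment cells and -0.413 over the cycling low pigment cells. The share of the lineage factors and that of the G2 and M list had a rho of 0.274 in the cells described, and the melanin share and the G2 and M list one of -0.12. The points are cells of 1 library at 1 thinned depth, and the values are descriptions.

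Markers of other cell types were scarce in the cells described. The 6 endothelial markers summed to 1.65 CPM with 3 of them at 0 UMIs, against 7.62 CPM in the other high pigment cells and 24.7 in the cycling low pigment cells, nearly all from Pecam1 (1.52, 7.31 and 24.3 CPM), a gene named after its values were seen. The 7 fibroblast markers summed to 2.41 CPM, the 7 leukocyte markers to 1.78 with 4 at 0, and the 5 keratinocyte markers to 0.0446 with 4 at 0. The 6 Schwann cell markers, some of which pigment cells also express, summed to 353, 444 and 364 CPM, with S100b and Mbp among the main ones. The part of these markers in the results above was not tested.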

How the data were processed

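A UMI count matrix of both libraries (5818 barcodes, 32285 genes) was deposited. Cell Ranger 6.1.2 and build mm10 are named per the submitters' processing notes. Per the file headers, the authors' table of 4036 cells gives counts of UMIs and of genes, the mitochondrial and ribosomal protein UMIs as percent of a cell's total, several gene set scores, a phase and a cluster number. No source used here gives the genes of the scores, the clustering settings, the treatment of depth in aggregation or the counting of reads that match several genes.

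For each group the counts of its cells were added up and scaled to CPM. Ratios carry exact conditional binomial, levels exact Poisson and shares Clopper-Pearson 95% intervals. They cover counting error and leave out variation between cells, cultures and sorts. Phases were called with scanpy 1.11.5 after each cell was thinned to 7500 UMIs (seed 0), with control genes from measured genes, a pool chosen after seeing the calls. Doublets were marked with Scrublet at an expected rate of 0.06. The scripts ran in Python 3.11.15 with numpy 2.4.6, scipy 1.17.1 and pandas 2.3.3. Only the ratios, their intervals and the calls by size were tested on simulated counts, which held counting error alone.

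The members and lists were chosen with earlier results of these data known. Named were, in each comparison, the 12 highest and 12 lowest ratios among genes with a mean of 50 CPM or more, members of the cell cycle, melanin and lineage lists, and from every other list at most 4 high and 3 low members. A few genes that this rule names are not reported here. Promoters were taken from the largest ratio downwards where the letters lay before the start. Alternatives were CPM minimums of 2 and 50, division by the median ratio, thinned counts, cells weighted equally, no doublets and 1 called phase at a time.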

Additional observations from a re-analysis of the deposited data

How the results depend on the processing

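Counts of genes past 1.5-fold depended on the minimum CPM. Against the other high pigment cells the 281 higher and 187 lower genes became 490 and 628 at a minimum of 2 CPM and 73 and 34 at 50 CPM. Against the cycling low pigment cells the 318 and 943 became 613 and 1817 at 2 CPM, 106 and 178 at 50 CPM, and 516 and 606 with ratios divided by that of the median gene. Within a called phase the counts against the other high pigment cells were 613 higher in S, and 961 lower in G1, 1181 in S and 663 in G2M; these sums hold fewer cells. The share called S was 30.26% by the authors' phases and 21.84% with control genes from all genes, under which 76.64% were called G2M; this last setting and a comparison with the cluster 3 cells alone were chosen after seeing the data.

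Of list medians that were themselves past 25% up or 20% down against the other high pigment cells, those that changed sign within cells called G2M were chromatin replication (-0.034), replication-linked repair (-0.18), CDK inhibitors (-0.021), E2F, MYB and FOXM1 regulators (-0.12), mitotic kinases (-0.0099), spindle (-0.18), passengers (-0.16) and the S and G2M scoring lists (-0.0083 and -0.15). Within cells called S they were chromatin replication (-0.053), CDK inhibitors (-0.25) and E2F, MYB and FOXM1 regulators (-0.044). The median of all measured genes was itself -0.11 in cells called G2M and -0.087 in cells called S. Some of the list medians given here lie above these values. Named genes past 25% up or 20% down that changed sign in G2M were Spsb2 (log2 ratio 0.24), Ccnd2 (0.13), Ccne2 (-1.03), Cdc45 (-0.13), Cdkn1a (-0.050), Cenpf (-0.15), Foxm1 (-0.27), Mc1r (0.39), Mki67 (-0.23), Rrm2 (-0.36) and Sox9 (0.22), and in S Cenpf (-0.024), Chaf1a (-0.26), Plk1 (-0.51) and Sox9 (0.25). Smaller list medians also changed sign within phases and are not listed. Cluster 3 gave 76 of the 127 other high pigment cells called G2M and 21 of the 41 called S. The cause of the sign changes was not tested. No list median or named gene past that size changed sign against the cycling low pigment cells in the settings run, nor in either comparison when doublets were left out, counts thinned or cells weighted equally.

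No paired analysis was possible because each group is 1 library and the labels give no replicate numbers. Cells called G1 were not compared with the low pigment cells, of which 3 had that call. A level of 10 CPM is 224 UMIs in the cells described, 64 in the other high pigment cells and 161 in the cycling low pigment cells.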
